A study of Arabidopsis thaliana with 36 samples.

Results

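The comparison sets unstressed Arabidopsis seedlings of the double knockout bzip17/28 against unstressed seedlings of the double knockout bzip28/60. Members were taken by genotype and treatment in the labels, 3 libraries of each line, so 6 of the 36 libraries of the series entered it. bZIP28 is knocked out in both lines according to the labels, and the lines differ in that the first also lacks bZIP17 and the second also lacks bZIP60. Whole seedlings were 12 days old and had been soaked for 6 h in water with DMSO, the solvent of the treated samples (mock). The same lines after 6 h in 5 µg/ml tunicamycin (Tm), which blocks N-glycosylation of proteins, gave 6 other libraries (3 of each line) that are set beside the mock comparison. Mock libraries of the double knockouts bzip17/60 and s1p/s2p (3 each) give further levels, and wild-type libraries entered only an alternative fit of all 36 libraries. The labels name no mutant alleles and do not say how many seedlings a library pooled or that repeats were grown apart, so the p-values measure the scatter of libraries within groups, pooled over the 8 mutant groups fitted, and that scatter may be technical.

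Proteins of the secretory pathway fold in the endoplasmic reticulum (ER), and misfolded proteins there set off the unfolded protein response (UPR). In Arabidopsis, bZIP17 and bZIP28 are transcription factors anchored in the ER membrane that travel to the Golgi and are cut free by the proteases S1P and S2P. bZIP60 is made in its active form after the ER sensor IRE1 splices its mRNA. bZIP28 and bZIP60 are best known for raising ER chaperone genes under stress, and bZIP17 for roles in salt stress and root growth.

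The 2 unstressed lines differed at 1734 of 10335 genes tested, 16.8%, with 1006 genes higher in bzip17/28 (9.73%) and 728 lower (7.04%). The mock counts given below for gene lists are to be set against these shares. A gene is called when its adjusted p, from edgeR's quasi-likelihood F-test with Benjamini-Hochberg adjustment over all genes tested, is under 0.05. Levels are given as CPM, counts scaled to the library's assigned reads and TMM factor. Of the genes higher in bzip17/28, 506 had a log2 fold change beyond 1 and 69 beyond 3, while 234 and 9 of the lower ones were that far below. The 3 and 3 libraries did not overlap at 3563 genes (34.5%). The median log2 fold change of all genes was -0.0133. Assigned counts ran from 2210846 to 2385337 in bzip17/28 libraries and from 2081806 to 2557005 in bzip28/60 libraries, and the 20 most abundant genes took 19.1 to 19.7% and 22.3 to 22.6% of them. The biological coefficient of variation was 5.58% in bzip17/28 and 9.07% in bzip28/60. In whole seedlings fewer cells of a type and less RNA per cell cannot be told apart. No wild-type library enters the contrast, so it cannot tell a level raised in bzip17/28 from a level lowered in bzip28/60. The labels give no batch or date, so anything shared by the 3 libraries of a line cannot be told apart from its genotype.

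**Figure D1:**
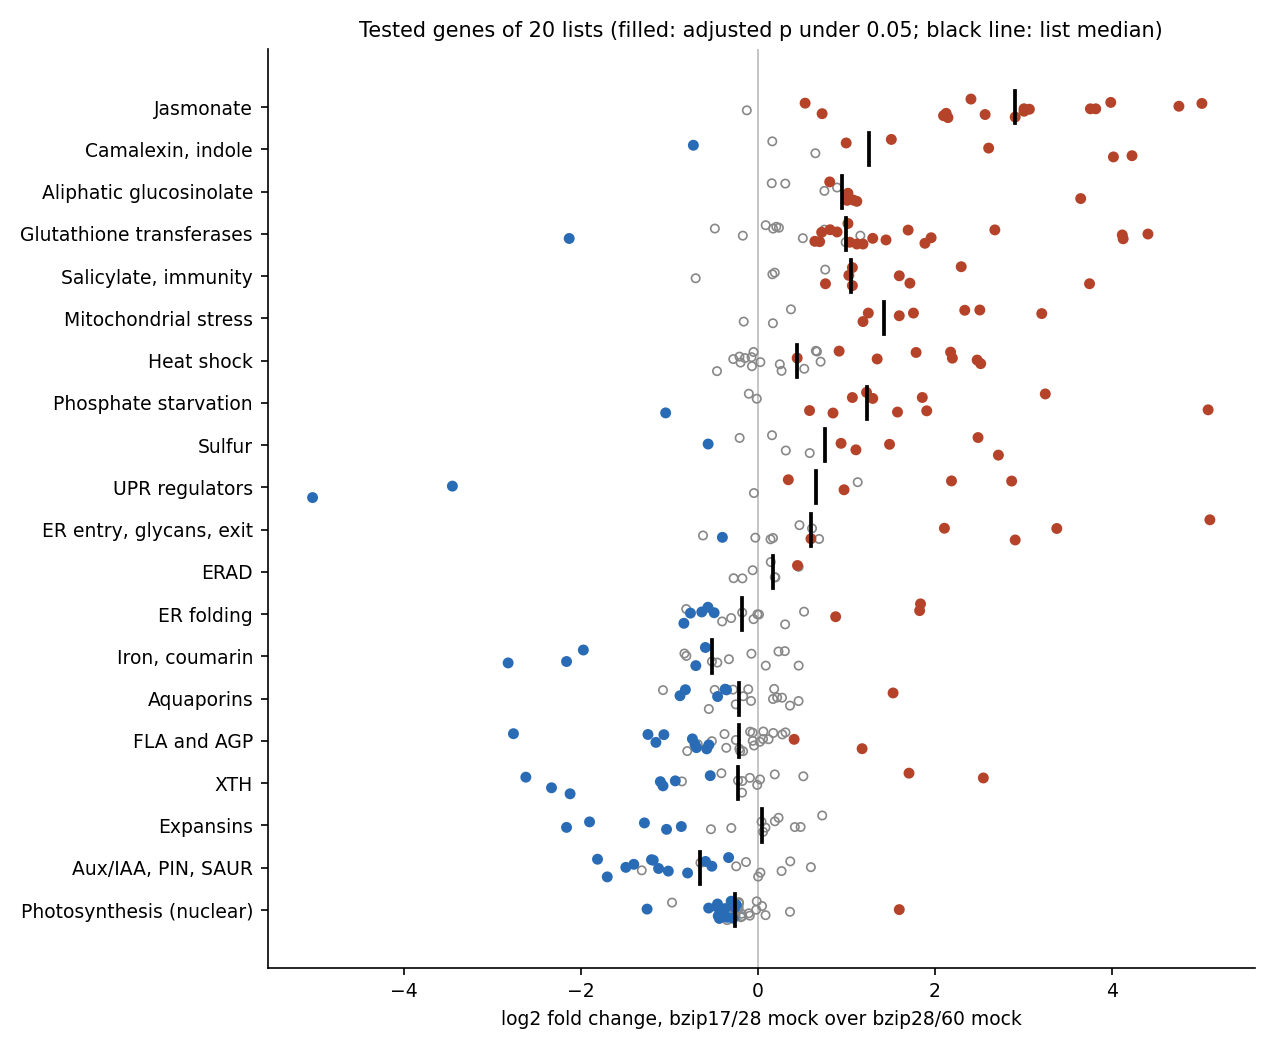
Log2 fold change of bzip17/28 mock over bzip28/60 mock (x axis) for the tested genes of the gene lists named on the left, with called genes filled (red higher, blue lower) and the list median as a black line. Jasmonate genes lie farthest to the right, with a median of 2.91, and Aux/IAA, PIN and SAUR genes lie mostly to the left, with a median of -0.65.

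The 3 genes named by the genotypes came first as a check of the labels. BZIP17 (AT2G40950) had 1.37, 0 and 0.446 CPM in the bzip17/28 libraries, against 8.44, 5.45 and 6.82 CPM in the bzip28/60 libraries. BZIP60 (AT1G42990) had 237, 246 and 258 CPM in bzip17/28 and 37.4, 34.2 and 29.8 CPM in bzip28/60. Both genes were therefore lowest in the line that should lack them. BZIP17 was lower in bzip17/28 by a log2 fold change of -3.45 ± 0.59 (SE; adjusted p = 5.27e-05), and BZIP60 higher by 2.87 ± 0.12 (adjusted p = 7.57e-18). The BZIP60 counts left in bzip28/60 were close to the 30.5 ± 4.59 CPM (SD, n = 3) of the bzip17/60 mock libraries, the other line without bZIP60.

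BZIP28 (AT3G10800) was not alike in the 2 lines, although the labels give its knockout for both. It had 0.455, 0.422 and 0 CPM in bzip17/28, against 10.1, 14.9 and 9.8 CPM in bzip28/60. With 2 and 78 counts over the groups, it was 38.7-fold lower in bzip17/28 (exact 95% counting interval 10.4 to 325; adjusted p = 3.29e-08). The 2 mock groups whose labels name no BZIP28 knockout, bzip17/60 and s1p/s2p, averaged 28.2 ± 5.77 and 28.1 ± 7.17 CPM (SD, n = 3 each), so the bzip28/60 libraries lay between them and bzip17/28. Whether the 2 lines carry the same BZIP28 allele is not given in the labels. AT3G10815, a RING/U-box protein gene 2 genes along from BZIP28, had no count in bzip17/28 and 2.41, 0.991 and 2.56 CPM in bzip28/60, at least 4.63-fold lower in bzip17/28 against a floor of 3 counts over the group. Among the 20 genes on each side of the 3 loci, 0 higher and 1 lower of 14 tested were called around BZIP17, 2 higher and 3 lower of 17 around BZIP28, and 1 higher and 2 lower of 9 around BZIP60. Over all genes tested 9.73% were called higher and 7.04% lower. Linkage of these genes to the mutant alleles was not tested.

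**Figure D2:**
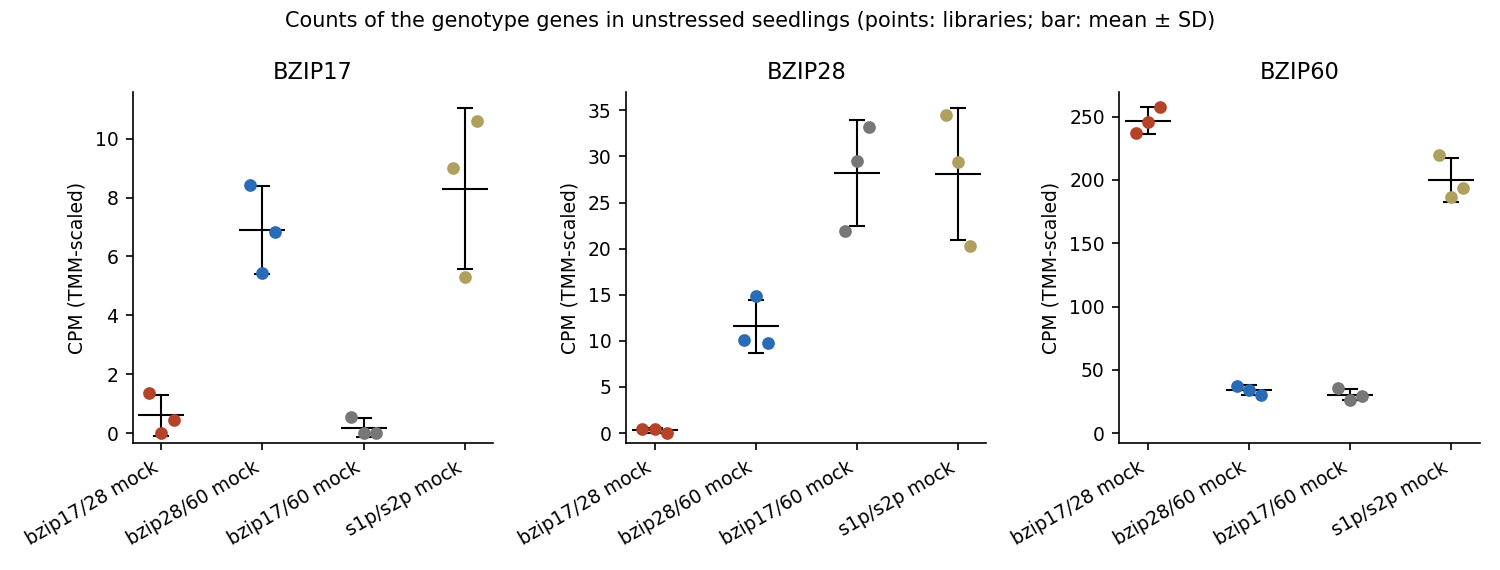
CPM of BZIP17, BZIP28 and BZIP60 in each mock library (points) of 4 double mutants, with mean and SD as bars. BZIP28 lies at 0 to 0.455 CPM in bzip17/28 and at 9.8 to 14.9 CPM in bzip28/60.

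Among ER and UPR genes the 2 lines differed at some genes in each direction, without a common shift. Of 13 UPR regulators 8 were tested, 4 of them higher (BZIP60 among these) and 2 lower (BZIP17 and BZIP28). BI1 (BAX inhibitor 1, an ER membrane protein that restrains cell death) had 440, 416 and 455 CPM in bzip17/28, against 214, 220 and 233 CPM in bzip28/60, a log2 fold change of 0.98 ± 0.10 (adjusted p = 4.46e-09). Its libraries did not overlap, as at 34.5% of all genes tested, and bzip17/60 mock averaged 191 ± 5.34 CPM (SD, n = 3), lower than any bzip28/60 library. NAC103, a NAC transcription factor of the UPR, had 2.28, 2.53 and 5.80 CPM in bzip17/28 and 2.01, 0 and 0 CPM in bzip28/60. It was called (log2 fold change 2.19 ± 0.71, adjusted p = 0.0307), but lost the call without bzip28/60 replicate 2 (adjusted p = 0.12) or 3 (0.151) or bzip17/28 replicate 3 (0.215). BAG7, a co-chaperone of the ER, averaged 483 ± 54.5 CPM in bzip17/28 and 380 ± 17.2 CPM in bzip28/60 (SD, n = 3 each), and was called (adjusted p = 0.0077) except without bzip28/60 replicate 3 (0.0502), without bzip17/28 replicate 2 (0.0769) or with all 36 libraries fitted (0.0751). Without bzip28/60 replicate 3 only 2 regulators were called higher. TIN1, a tunicamycin-induced gene, averaged 2.95 ± 1.16 CPM in bzip17/28 and 1.26 ± 0.758 CPM in bzip28/60 (adjusted p = 0.209). IRE1A averaged 30.1 ± 1.22 CPM in bzip17/28 and 30.9 ± 2.84 CPM in bzip28/60 (SD, n = 3 each; adjusted p = 0.918).

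Genes of protein entry into the ER, N-glycan assembly and ER exit were mostly higher where they were called. Of its 17 members 13 were tested, 5 were higher and 1 was lower, and the median log2 fold change was 0.60. AT1G18830 (also named SEC31A, a subunit of the outer COPII coat) had 34.6, 29.6 and 32.1 CPM in bzip17/28, against 0.804, 0 and 1.70 CPM in bzip28/60, a log2 fold change of 5.11 ± 0.36 (adjusted p = 4.62e-12). It averaged 13.6 ± 2.93 CPM in s1p/s2p mock and 1.13 ± 0.983 CPM in bzip17/60 mock (SD, n = 3 each). The bzip17/60 level was near that of bzip28/60, and the s1p/s2p level lay between the 2 lines compared. What part the loss of bZIP60 has in these levels was not tested. ARFA1D, an ADP-ribosylation factor GTPase of vesicle traffic, had 15.0, 17.7 and 18.7 CPM in bzip17/28 and 2.82, 3.47 and 5.54 CPM in bzip28/60, a log2 fold change of 2.11 ± 0.31 (adjusted p = 6.23e-06). Its locus has 7 transcript models, and reads that fit more than 1 model were left out of the counts, so its level is a low estimate. SAR1B, the small GTPase that starts COPII assembly, had 118.9, 138.1 and 123.2 CPM in bzip17/28 and 85.7, 86.2 and 78.8 CPM in bzip28/60, a smaller difference of 0.60 ± 0.12 (adjusted p = 0.000349). The remaining 2 higher calls, SARA1A and AT3G60540 (a Sec61 beta subunit), rest on 10 and 14 counts in bzip17/28 and 1 count each in bzip28/60. Leaving out bzip28/60 replicate 2 or 3 or bzip17/28 replicate 3 ended both calls, and SARA1A was also lost without bzip17/28 replicate 1 or with DESeq2 (adjusted p = 0.0742), AT3G60540 with all 36 libraries fitted (0.0614). With only loci of 1 transcript model tested, which leaves out AT1G18830, ARFA1D and AT3G60540, 2 genes of the list were higher. The lower gene was AT5G50460, a Sec61 gamma subunit of the translocon, with 169 ± 3.16 CPM in bzip17/28 and 223 ± 10.8 CPM in bzip28/60 (SD, n = 3 each; adjusted p = 0.00455).

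Chaperones and folding enzymes split by gene. Of 26 folding genes 17 were tested, with 3 higher, 5 lower and 9 not called, and a median log2 fold change of -0.18. The 3 higher genes make disulfide bonds. PDIL1-2, a protein disulfide isomerase, had 86.5, 90.0 and 82.1 CPM in bzip17/28, against 23.7, 25.3 and 23.4 CPM in bzip28/60 (log2 fold change 1.84 ± 0.17, adjusted p = 6.46e-10). PDIL2-3, another isomerase, averaged 108 ± 12.4 and 58.8 ± 5.35 CPM (adjusted p = 1.09e-05), and ERO1, the oxidase that recharges these isomerases, 10.01 ± 0.71 and 2.71 ± 1.14 CPM (adjusted p = 0.000124; bzip17/28 and bzip28/60, SD, n = 3 each). In bzip17/60 mock PDIL1-2 averaged 27.8 ± 5.28 CPM and ERO1 2.12 ± 1.23 CPM (SD, n = 3 each), near the bzip28/60 levels. The 5 lower genes serve BiP or the calreticulin cycle or are a further isomerase. SDF2, a partner of the BiP co-chaperone ERdj3, had 25.5, 25.8 and 27.7 CPM in bzip17/28, against 41.4, 48.1 and 51.6 CPM in bzip28/60 (log2 fold change -0.83 ± 0.14, adjusted p = 5.5e-05). ATERDJ3B itself averaged 37.7 ± 2.82 and 55.8 ± 1.64 CPM, the calreticulins CRT1a 27.6 ± 3.61 and 42.7 ± 3.89 CPM and CRT1b 52.6 ± 4.89 and 73.8 ± 10.3 CPM, and the isomerase PDIL1-3 15.0 ± 1.88 and 25.5 ± 1.99 CPM (bzip17/28 and bzip28/60; SD, n = 3 each). CRT1b lost its call without bzip28/60 replicate 1 (adjusted p = 0.0739) and with all 36 libraries fitted (0.0672).

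BIP1 and calnexin, general chaperones of the ER, differed by less than the spread between libraries. BIP1, the ER Hsp70, had 115, 115 and 117 CPM in bzip17/28 and 119, 110 and 117 CPM in bzip28/60, a log2 fold change of -0.0033 ± 0.10 (adjusted p = 0.991). Calnexin CNX1 averaged 168 ± 18.6 CPM in bzip17/28 and 167 ± 12.8 CPM in bzip28/60 (SD, n = 3 each; adjusted p = 0.955). Of 11 genes of ER-associated degradation 8 were tested, and only CDC48, the ATPase that pulls proteins out of the membrane, was called, with 309 ± 12.1 CPM in bzip17/28 and 227 ± 13.8 CPM in bzip28/60 (SD, n = 3 each; adjusted p = 0.000369). Reads of BIP1 and its near copy BIP2 may have been set aside in counting, so the BIP1 level is uncertain.

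With tunicamycin the same 2 lines differed at more of these genes, and by more. Of the folding list 13 genes were higher in bzip17/28 Tm and 1 lower, and of the degradation list 6 were higher and 0 lower. Over all genes tested 12.2% were higher and 13.2% lower under Tm. BIP1 averaged 994 ± 64.2 CPM in bzip17/28 Tm and 214 ± 18.6 CPM in bzip28/60 Tm, and BI1 3314 ± 25.5 and 291 ± 17.9 CPM in the same 2 groups (SD, n = 3 each). ATERDJ3B, lower in bzip17/28 under mock, was higher under Tm, with 189 ± 10.7 CPM against 52.7 ± 8 CPM in bzip28/60 Tm (SD, n = 3 each). SDF2 was lower under mock and under Tm had 67.2 ± 8.96 CPM in bzip17/28 and 59.3 ± 3.64 CPM in bzip28/60 (SD, n = 3 each; adjusted p = 0.292). The test of the difference between the Tm and the mock contrast called 13 of the 17 folding genes, against 4.68% of all genes tested, 1.86% with a higher and 2.83% with a lower value under Tm.

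**Figure D3:**
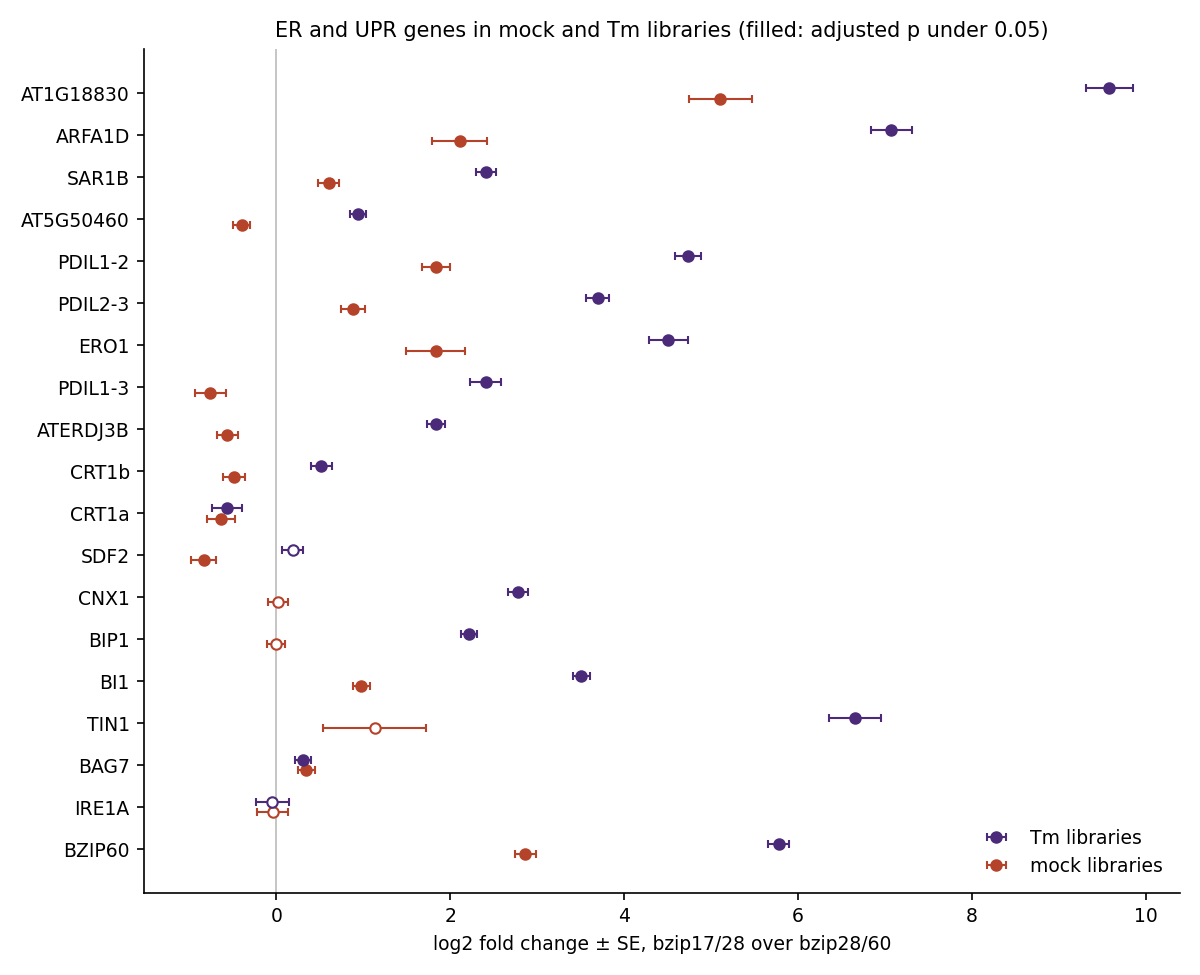
Log2 fold change ± SE of bzip17/28 over bzip28/60 (x axis) for ER and UPR genes, in Tm libraries (purple) and in mock libraries (red), filled where the adjusted p is under 0.05. BIP1 and CNX1 sit at 0 under mock and at 2.22 and 2.78 under Tm, while ATERDJ3B, PDIL1-3 and CRT1b change side.

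Jasmonate genes had the highest median of the 35 lists. The hormone is made from membrane lipids through LOX, AOS and AOC enzymes, and the transcription factor MYC2 and the JAZ repressors act in its response. Of 28 members 17 were tested, and 16 were higher in bzip17/28, 0 were lower and JAZ6 alone was not called. The median log2 fold change was 2.91. Among the synthesis enzymes, AOS (allene oxide synthase) had 775, 947 and 1116 CPM in bzip17/28, against 165, 290 and 188 CPM in bzip28/60, a log2 fold change of 2.15 ± 0.18 (adjusted p = 1.38e-10). LOX3, a lipoxygenase, had 79.2, 106 and 114 CPM in bzip17/28 and 5.23, 10.4 and 5.97 CPM in bzip28/60, a log2 fold change of 3.82 ± 0.28 (adjusted p = 1.58e-11). AOC1, an allene oxide cyclase, averaged 113 ± 9.36 CPM in bzip17/28 and 14.0 ± 1.45 CPM in bzip28/60 (SD, n = 3 each), and AOC2, AOC3 and AOC4 were higher by 2.57, 2.1 and 0.73 on the log2 scale. The AOC genes are close copies, so the split of their reads is uncertain.

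In the jasmonate response, MYC2 had 226, 254 and 268 CPM in bzip17/28, against 54.3, 62.9 and 54.1 CPM in bzip28/60, a log2 fold change of 2.13 ± 0.13 (adjusted p = 1.87e-13). ST2A, a sulfotransferase that inactivates a jasmonate, averaged 130 ± 9.67 CPM in bzip17/28 and 17.6 ± 5.85 CPM in bzip28/60 (SD, n = 3 each). Each of these genes was higher in every bzip17/28 library than in any bzip28/60 library. Libraries did not overlap, in either direction, at 34.5% of all genes tested. Of the repressors, JAZ8 had 64 counts in bzip17/28 and 2 in bzip28/60, 32.2-fold higher (exact 95% counting interval 8.56 to 272). JAZ12 was higher by 0.54, and JAZ6 averaged 13.1 ± 2.97 and 14.2 ± 3.07 CPM (bzip17/28 and bzip28/60; SD, n = 3 each; adjusted p = 0.821). The defence outputs were higher too. PDF1.2, an antifungal defensin, had 81.5, 64.6 and 54.5 CPM in bzip17/28, against 7.64, 22.8 and 8.52 CPM in bzip28/60. TAT3, a tyrosine aminotransferase induced by jasmonate, had 54.2, 61.2 and 75.4 CPM in bzip17/28 and 0, 6.44 and 0 CPM in bzip28/60, where all its counts came from replicate 2. The count of 16 stayed at 16 with each library left out in turn, and lay between 15 and 17 with the other settings. Several members passed the filter on low counts mainly through the libraries in which they were high, here and in the lists that follow, so such counts describe the tested members only.

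In bzip17/60 mock MYC2 averaged 62.3 ± 3.96 CPM, LOX3 11.3 ± 2.21 CPM and AOS 278 ± 14.7 CPM (SD, n = 3 each), close to bzip28/60. In s1p/s2p mock they averaged 108 ± 16.5, 25.3 ± 7.04 and 587 ± 130.0 CPM (SD, n = 3 each), between the 2 lines compared. These levels are given without a test.

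**Figure D4:**
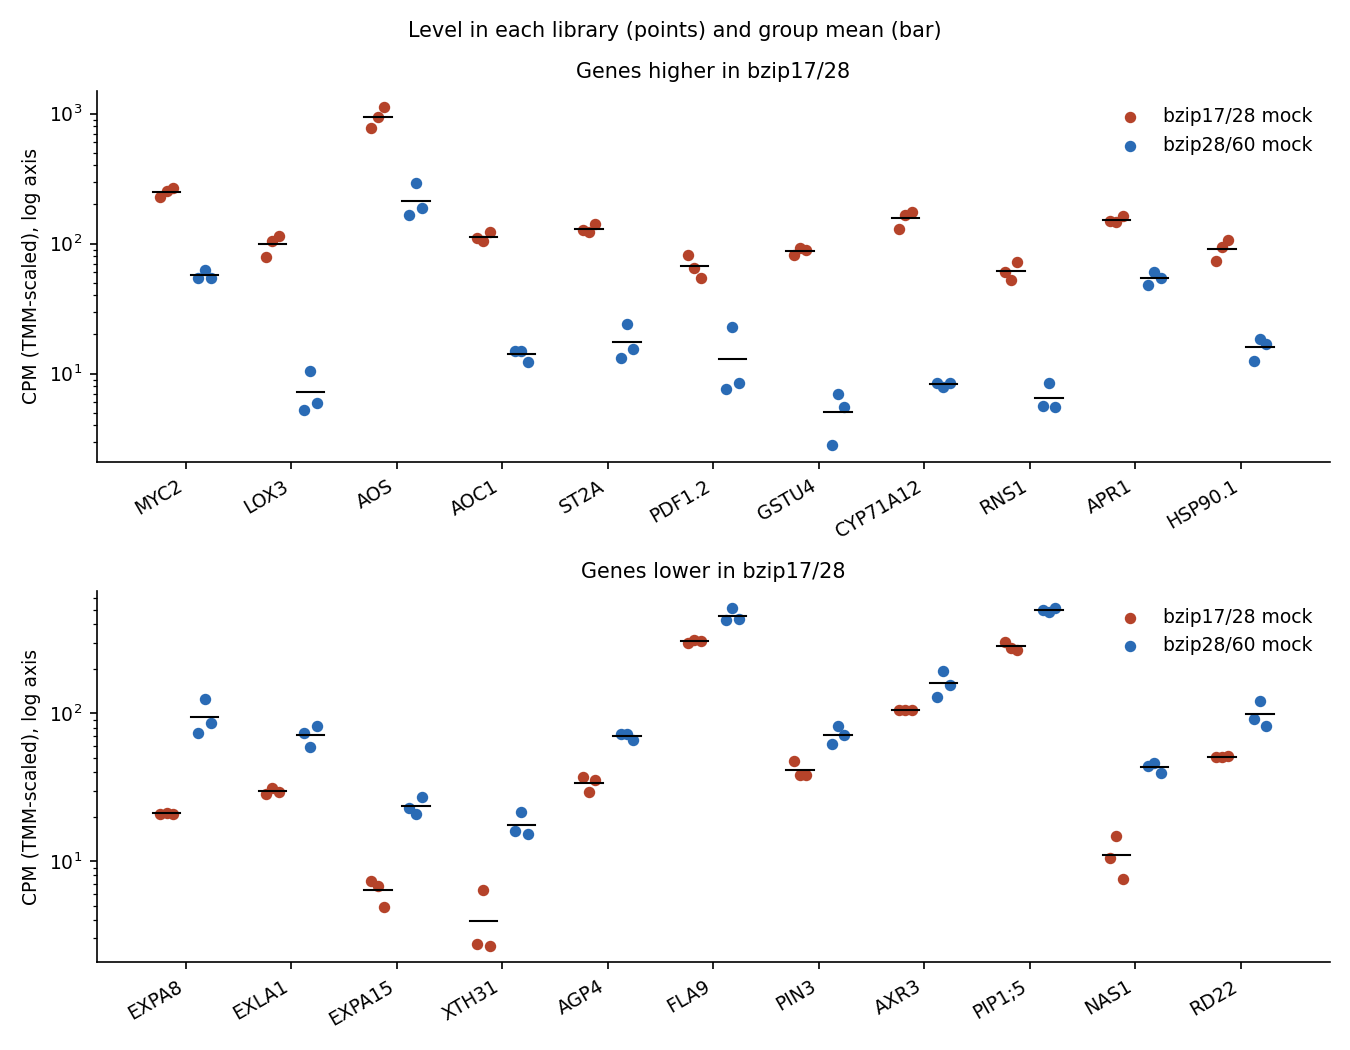
CPM (log axis) of named genes in each bzip17/28 mock library (red) and each bzip28/60 mock library (blue), with group means as bars, for genes higher in bzip17/28 (above) and lower in bzip17/28 (below). The genes shown were picked among those called in these same libraries, so that their red and blue points do not overlap is no further support. Over all genes tested 34.5% did not overlap. LOX3, for example, lies at 79.2 to 114 CPM in bzip17/28 and at 5.23 to 10.4 CPM in bzip28/60.

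Genes of defence metabolism were mostly higher in bzip17/28 where they were called. Of 13 genes of camalexin and indole defence compounds 8 were tested, 5 were higher and 1 was lower. CYP71A12, an enzyme of indole defence compounds, had 130, 165 and 176 CPM in bzip17/28, against 8.44, 7.93 and 8.52 CPM in bzip28/60 (log2 fold change 4.23 ± 0.32, adjusted p = 2.31e-11). PAD3, the last enzyme of camalexin synthesis, averaged 23.5 ± 8.39 CPM in bzip17/28 and 3.84 ± 0.621 CPM in bzip28/60, and CYP83B1, which feeds indole glucosinolates, 185 ± 8.60 and 93.1 ± 26.8 CPM (SD, n = 3 each). CYP71A12 is close in sequence to CYP71A13, which had 12.7 CPM in bzip17/28 and 0.756 CPM in bzip28/60. The lower gene was MYB34, a regulator of indole glucosinolates (log2 fold change -0.73 ± 0.24, adjusted p = 0.0337), and it lost its call in all but 1 of the leave-one-out fits and with DESeq2 (0.122). Of 18 genes of aliphatic glucosinolates, the methionine-derived mustard oil precursors, 10 were tested, 6 were higher and 0 were lower. CYP79F1, the enzyme that commits chain-elongated methionine to this pathway, had 32.8, 39.7 and 45.1 CPM in bzip17/28, against 2.41, 4.46 and 2.56 CPM in bzip28/60 (log2 fold change 3.65 ± 0.39, adjusted p = 2.43e-08). It lay far above the list median of 0.95. CYP79F2 averaged 22.0 CPM in bzip17/28 and 17.6 CPM in bzip28/60 and was not called (adjusted p = 0.343). The sulfotransferases SOT17 and SOT18, which finish the core structure, were higher by 1.02 ± 0.18 and 0.81 ± 0.13 on the log2 scale.

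Glutathione transferases, which conjugate glutathione to reactive compounds, were mostly higher in bzip17/28. Of 39 genes 29 were tested, 18 were higher and 1 was lower, with a median log2 fold change of 0.99. GSTU4 had 81.1, 92.9 and 89.7 CPM in bzip17/28, against 2.82, 6.94 and 5.54 CPM in bzip28/60 (log2 fold change 4.13 ± 0.33, adjusted p = 7.99e-11). GSTU5 averaged 546 ± 51.5 and 200 ± 21.9 CPM and GSTF7 198 ± 25.1 and 50.8 ± 0.27 CPM (bzip17/28 and bzip28/60; SD, n = 3 each). The most abundant members, GSTF10 and GSTU19, were higher by 0.90 and 0.70, smaller differences than those of GSTU4 and GSTF7. GSTF14 was the lower member, with 5.92, 5.07 and 6.25 CPM in bzip17/28 and 35.4, 27.8 and 12.8 CPM in bzip28/60 (log2 fold change -2.13 ± 0.35, adjusted p = 2.43e-05). Neighbouring GSTU genes and the pair GSTF6 and GSTF7 are close copies whose reads can be mixed.

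Genes of salicylate and pattern-triggered immunity were higher at 8 of 12 tested (23 listed) and lower at 0. The count of 8 lay between 6 and 9 with the other settings and between 6 and 8 with a library left out. PAD4, a regulator of salicylate signalling, had 70.6, 74.8 and 81.7 CPM in bzip17/28, against 32.6, 38.2 and 40.5 CPM in bzip28/60 (log2 fold change 1.03 ± 0.16, adjusted p = 1.63e-05). WRKY70, a transcription factor between the salicylate and jasmonate pathways, averaged 142 ± 20.4 and 67.1 ± 7.20 CPM, and EDS5, the chloroplast transporter of a salicylate precursor, 22.5 ± 6.32 and 4.75 ± 3.38 CPM (bzip17/28 and bzip28/60; SD, n = 3 each). FRK1, a marker of pattern-triggered immunity, had 45 counts in bzip17/28 and 3 in bzip28/60, 15.1-fold higher (exact 95% counting interval 4.85 to 76.0). PR5, a pathogenesis-related protein, was higher by 1.07 ± 0.25 (adjusted p = 0.00269), while NPR1 and FMO1 were not called (0.541 and 0.467).

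Genes of other stresses were higher in part. Of 37 heat shock genes 23 were tested and 8 were higher, 0 lower. Cytosolic HSP90.1 had 72.9, 94.2 and 106 CPM in bzip17/28, against 12.5, 18.3 and 17.0 CPM in bzip28/60 (log2 fold change 2.52 ± 0.24, adjusted p = 3.01e-09), and Hsp70-2 averaged 96.6 ± 9.09 CPM in bzip17/28 and 21.03 ± 2.41 CPM in bzip28/60 (SD, n = 3 each). HSP70 was higher by 1.35 ± 0.20, and the small heat shock proteins HSP17.6II and HSP17.4 by 2.48 and 2.18, while the mitochondrial HSP60 was not called (adjusted p = 0.808). Of 14 genes of mitochondrial retrograde and oxidative stress 10 were tested and 7 were higher, 0 lower. RHL41 (ZAT12, a zinc finger factor of oxidative stress) had 75.6, 82.8 and 88.4 CPM in bzip17/28, against 27.8, 25.3 and 28.1 CPM in bzip28/60 (log2 fold change 1.60 ± 0.16, adjusted p = 6.29e-09). UGT74E2, a glucosyltransferase of an auxin, averaged 26.1 ± 7.19 and 2.77 ± 0.57 CPM, and the transporter DTX1 19.3 ± 2.55 and 3.26 ± 1.44 CPM (bzip17/28 and bzip28/60; SD, n = 3 each). The alternative oxidase AOX1A, the usual marker of this pathway, averaged 62.5 ± 4.21 and 47.99 ± 6.5 CPM and was not called (adjusted p = 0.0701). Of 13 abscisic acid and dehydration genes tested (20 listed) 4 were higher and 2 lower, against 9.73% and 7.04% of all genes tested. The cold- and dehydration-induced KIN2 averaged 725 ± 106.0 CPM in bzip17/28 and 303 ± 51.5 CPM in bzip28/60, and its neighbour KIN1 was lower by -1.06. RD26, a NAC factor, was higher by 1.39 ± 0.20, and RD22, a dehydration-induced wall protein, lower by -0.94 ± 0.16.

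Nutrient genes differed by nutrient. Of 17 phosphate starvation genes 13 were tested, 10 were higher and 1 was lower, with a median log2 fold change of 1.23, and the higher count fell to 6 without bzip28/60 replicate 3. RNS1, a ribonuclease that frees phosphate from RNA, had 60.6, 52.4 and 72.3 CPM in bzip17/28, against 5.63, 8.42 and 5.54 CPM in bzip28/60 (log2 fold change 3.25 ± 0.27, adjusted p = 1.09e-10). The phosphate sensor gene SPX1 averaged 131 ± 9.91 and 55.9 ± 5.25 CPM, and SRG3, a glycerophosphodiesterase, 124 ± 9.02 and 50.1 ± 0.944 CPM (bzip17/28 and bzip28/60; SD, n = 3 each). The phosphate transporter PHT1;4, a member of the root transporter list, was higher by 1.45 ± 0.22. The more abundant PHT1;1 of that list averaged 82.8 CPM in bzip17/28 and 62.7 CPM in bzip28/60 and was not called (adjusted p = 0.183). In the phosphate starvation list, SQD1, an enzyme of sulfolipid synthesis, was not called (adjusted p = 0.726). The lower gene was PHO2, the ubiquitin-conjugating enzyme that limits phosphate uptake, with 31.2 ± 4.39 CPM in bzip17/28 and 64.0 ± 17.0 CPM in bzip28/60 (SD, n = 3 each; adjusted p = 7.88e-05). Of 20 sulfur genes 10 were tested, 5 were higher and 1 was lower. APR1, an APS reductase of sulfate assimilation, had 149, 146 and 162 CPM in bzip17/28, against 47.9, 60.0 and 54.5 CPM in bzip28/60 (log2 fold change 1.49 ± 0.18, adjusted p = 2.8e-07). LSU1, a marker of low sulfur, and the vacuolar sulfate exporter SULTR4;1 were higher by 2.72 ± 0.40 and 1.11 ± 0.16. The second reductase, APR2, was the lower gene (-0.56 ± 0.16, adjusted p = 0.011), a call lost without bzip28/60 replicate 2 (0.113).

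Iron genes were lower or not called. Of 20 iron and coumarin genes 15 were tested, 5 were lower and 0 higher, with a median of -0.52, and 3 to 4 were lower with a library left out. NAS1, which makes the metal chelator nicotianamine, had 10.5, 14.8 and 7.59 CPM in bzip17/28, against 44.2, 46.1 and 39.6 CPM in bzip28/60 (log2 fold change -1.97 ± 0.33, adjusted p = 3.74e-05). NAS2, a close copy of NAS1, had 4.55, 9.29 and 5.36 CPM in bzip17/28 and 50.3, 66.4 and 22.2 CPM in bzip28/60. CYP82C4, a coumarin enzyme induced by low iron, averaged 7.11 ± 4.26 and 32.0 ± 8.75 CPM (bzip17/28 and bzip28/60; SD, n = 3 each; adjusted p = 2.63e-05). The ferritin gene FER3 was also lower (-0.59 ± 0.19, adjusted p = 0.0324). The ferritin gene FER1 averaged 259 ± 8.67 CPM in bzip17/28 and 451 ± 211 CPM in bzip28/60 and was not called (0.144). FER1 was called lower with no filter on low counts (2.19e-11) and with only the 6 libraries fitted (0.000986). Its log2 fold change was -0.80 and -0.82 in these fits, against -0.81 in the main fit, so mainly the p-value moved. The bzip28/60 libraries had 694, 351 and 309 CPM of FER1, so the size of the difference rests largely on replicate 1. The main root iron transporter IRT1 lay at the threshold (adjusted p = 0.0493) and lost its call in 5 of 6 leave-one-out fits, while the regulators bHLH38 and bHLH39 of the same response were not called. Of 11 root transporter genes tested 4 were lower and 1 higher, against 7.04% and 9.73% of all genes tested. Without bzip17/28 replicate 2, 1 was lower. The nitrate transporter NRT2:1 had 3.64, 3.801 and 3.57 CPM in bzip17/28, against 21.7, 9.91 and 15.8 CPM in bzip28/60 (log2 fold change -2.11 ± 0.44, adjusted p = 0.000726). Of 13 nitrate genes tested (19 listed) 1 was lower (NRT2:1), 1 was higher and 11 were not called, with a median of 0.0185. The higher gene was NIA1 (0.53, adjusted p = 0.0222), a call lost with all 36 libraries fitted (0.083). The more abundant nitrate transporter NRT1.1 was not called (adjusted p = 0.206).

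Genes of cell expansion and auxin were mostly lower in bzip17/28 where they were called. Expansins loosen the wall, and of 36 listed 15 were tested, 5 were lower and 0 higher, with 10 not called and a median log2 fold change of 0.043. EXPA8 had 20.95, 21.12 and 20.97 CPM in bzip17/28, against 73.2, 125 and 86.1 CPM in bzip28/60 (log2 fold change -2.16 ± 0.21, adjusted p = 3.43e-09). EXLA1 averaged 29.6 ± 1.52 and 71.8 ± 11.3 CPM, and EXPA15 6.32 ± 1.25 and 23.7 ± 3.29 CPM (bzip17/28 and bzip28/60; SD, n = 3 each). The root hair members EXPA7 and EXPA18 were not called (adjusted p = 0.719 and 0.388). Of 32 XTH genes, which cut and rejoin wall xyloglucan, 19 were tested, 7 were lower and 2 higher. XTH31 had 2.73, 6.33 and 2.68 CPM in bzip17/28 and 16.1, 21.3 and 15.3 CPM in bzip28/60 (log2 fold change -2.12 ± 0.39, adjusted p = 0.000148). XTH33 and XTH20 were lower by -2.62 and -2.33, while XTH15 was higher, with 94.8 ± 6.02 CPM in bzip17/28 and 29.0 ± 5.42 CPM in bzip28/60 (SD, n = 3 each), as was XTH25 (2.55 ± 0.44).

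Arabinogalactan proteins and their fasciclin-like kin (FLA), glycoproteins of the cell surface, were lower at 9 and higher at 2 of 31 tested (49 listed). Over all genes tested 7.04% were lower and 9.73% higher. AGP4 had 36.9, 29.1 and 35.3 CPM in bzip17/28, against 72.0, 72.8 and 65.6 CPM in bzip28/60 (log2 fold change -1.06 ± 0.14, adjusted p = 9.18e-07). FLA9 averaged 307 ± 6.84 CPM in bzip17/28 and 459 ± 51.0 CPM in bzip28/60 (SD, n = 3 each; adjusted p = 8.47e-06). LRX3, a leucine-rich repeat extensin of the wall, was lower by -0.49 ± 0.10. Of 9 extensin, proline-rich protein and LRX genes tested (14 listed), 1 was lower (LRX3) and 1 higher (PRP1). The median log2 fold change of that list was 0.42, so LRX3 does not stand for its list. The 2 higher arabinogalactan proteins, AGP1 and AGP5, were not called with all 36 libraries fitted or without bzip28/60 replicate 2.

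Auxin genes (Aux/IAA repressors, PIN carriers, SAUR growth genes and GH3 enzymes that conjugate auxin) were lower at 12 and higher at 0 of 21 tested (53 listed), with a median of -0.65. The PIN3 carrier had 47.4, 38.01 and 38.4 CPM in bzip17/28, against 61.9, 82.3 and 70.7 CPM in bzip28/60 (log2 fold change -0.79 ± 0.15, adjusted p = 0.000231). AXR3 (IAA17), an auxin response repressor, averaged 105 ± 0.629 and 159 ± 31.5 CPM, and SAUR68 4.08 ± 1.23 and 10.9 ± 1.8 CPM (bzip17/28 and bzip28/60; SD, n = 3 each). The carrier PIN7 was lower by -1.20, and the repressors IAA28 and IAA18 were not called (adjusted p = 0.987 and 0.908). The count of 12 lay between 5 (without bzip17/28 replicate 2) and 11 with a library left out.

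Water channels were lower at 5 and higher at 1 of 20 tested (33 listed), against 7.04% and 9.73% of all genes tested. The plasma membrane channel PIP1;5 had 305, 277 and 270 CPM in bzip17/28, against 498, 488 and 515 CPM in bzip28/60 (log2 fold change -0.82 ± 0.09, adjusted p = 4.76e-08). TIP2;2 of the vacuole averaged 191 ± 14.7 and 261 ± 10.3 CPM, and BETA-TIP, a channel known from seeds, was the higher one with 23.6 ± 6.75 and 7.93 ± 3.97 CPM (bzip17/28 and bzip28/60; SD, n = 3 each). Without bzip17/28 replicate 1 only 3 channels were lower.

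The marker lists give the state of the tissue in which these genes were counted. Nuclear photosynthesis genes, which mark green tissue, summed to 133600 to 139000 CPM in bzip17/28 and 162300 to 168800 CPM in bzip28/60, so the sums did not overlap. Of 38 tested (47 listed) 16 were lower and 1 higher, by small steps, with a median log2 fold change of -0.26. LHCA4, an antenna protein of photosystem I, had 9960, 9387 and 9155 CPM in bzip17/28, against 12630, 12580 and 13270 CPM in bzip28/60 (log2 fold change -0.43 ± 0.09, adjusted p = 0.000593). LHCB5 averaged 2037 ± 187 and 2806 ± 152 CPM, and PSAE-1 1907 ± 53.9 and 2566 ± 287 CPM (bzip17/28 and bzip28/60; SD, n = 3 each). The count of 16 lay at 8 with all 36 libraries fitted or without bzip17/28 replicate 2, and at 27 with only the 6 libraries fitted. Of 42 chloroplast-encoded genes tested 1 was higher and 1 lower, and without bzip28/60 replicate 1 neither was called. What part the share of green tissue has in the other differences was not tested.

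Root hair and Casparian strip genes were mostly not called, against 16.8% called of all genes tested. At their low levels this does not show that they were equal, and root transporter genes called are given above. Of 10 root hair genes tested (18 listed) only PRP1 was called, higher by 0.96 ± 0.31 (adjusted p = 0.0294), a call lost with DESeq2 (0.0792), with all 36 libraries (0.0611) and in 5 of 6 leave-one-out fits. The list summed to 155 to 168 CPM in bzip17/28 and 162 to 181 CPM in bzip28/60, with 1 member at 0 in all 6 libraries. Of 7 Casparian strip genes tested (8 listed), markers of the endodermis, 0 were called by edgeR or DESeq2 and 0 had an unadjusted p under 0.05, and they summed to 96.7 to 106 CPM in bzip17/28 and 85.2 to 114 CPM in bzip28/60. CASP1, which builds the strip, averaged 25.9 ± 2.30 CPM in bzip17/28 and 30.2 ± 5.48 CPM in bzip28/60 (SD, n = 3 each; adjusted p = 0.586). Of 26 cell cycle and histone genes tested (58 listed) 1 was lower, against 7.04% of all genes tested. The sums were 3804 to 4002 CPM in bzip17/28 and 4115 to 4498 CPM in bzip28/60. The lower gene, the histone H2B gene HTB9, lost its call with all 36 libraries (adjusted p = 0.0854) and without bzip28/60 replicate 1 (0.149) or bzip17/28 replicate 1 (0.0671) or 2 (0.083). With only the 6 libraries fitted 6 genes of the list were lower. None of 9 circadian, 7 flavonoid, 20 proteasome and 7 mitochondrion-encoded genes tested was called by edgeR or DESeq2, with 2, 1, 5 and 0 of them at an unadjusted edgeR p under 0.05. With only the 6 libraries fitted, or without bzip17/28 replicate 1, 2 proteasome genes were called higher. The circadian gene ELF4 (adjusted p = 0.0546) was called higher under 5 alternatives: with no filter on low counts (0.0155), with scaling by library size alone (0.03), with only the 6 libraries fitted (0.00657), without bzip17/28 replicate 1 (0.0474) and with relative log expression factors (0.0498). Without bzip28/60 replicate 1 or bzip17/28 replicate 2, 1 circadian gene was also called higher. Of the flavonoid genes 2 were called higher with no filter on low counts and 1 with only the 6 libraries fitted. Of 14 ribosomal protein genes tested (25 listed) 5 were lower, and 2 with all 36 libraries fitted or without bzip28/60 replicate 1.

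The 10 largest positive fold changes with at least 5 CPM in bzip17/28 and no overlap included several defence genes. NATA1, an N-acetyltransferase induced by jasmonate, had 81.1, 92.5 and 113 CPM in bzip17/28, against 0, 0.991 and 0 CPM in bzip28/60, 328-fold higher on 651 and 2 counts (exact 95% counting interval 90.4 to 2710). ELI3-2, an elicitor-activated alcohol dehydrogenase, had 109, 126 and 144 CPM in bzip17/28 and 0.804, 1.49 and 1.28 CPM in bzip28/60 (log2 fold change 6.69 ± 0.66, adjusted p = 3.7e-09). GRX480, a glutaredoxin that binds TGA transcription factors, had 45.5, 54.1 and 61.6 CPM in bzip17/28 and 1.21, 1.49 and 0.852 CPM in bzip28/60 (log2 fold change 5.46 ± 0.32, adjusted p = 9.82e-14). CYP76C2, a cytochrome P450, and the kinase MAPKKK21 had no count in any bzip28/60 library and were at least 20.8-fold and 15.1-fold higher, against a floor of 3 counts over the group. UGT76E12, a glycosyltransferase, TPS04, which makes the volatile precursor geranyllinalool, and the receptor-like protein RLP40 were higher 103-fold (18 to 4100), 67.5-fold (11.7 to 2700) and 42.6-fold (14.3 to 209) by their counts. AT1G18830 and SPX3, a phosphate response gene with 47 and 1 counts, complete the 10.

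The 10 largest negative fold changes included 2 of the genotype genes. These were BZIP28 and BZIP17. AT5G37990, a methyltransferase gene, had no count in bzip17/28 against 3.22, 8.92 and 6.39 CPM in bzip28/60, at least 13.6-fold lower. AT4G01390, a TRAF-like protein gene, had 1 count in bzip17/28 and 43 in bzip28/60, 42.7-fold lower (exact 95% counting interval 7.27 to 1730). AT4G12510, a lipid transfer protein gene, had 4.10, 3.38 and 2.68 CPM in bzip17/28, against 25.7, 24.8 and 21.3 CPM in bzip28/60 (log2 fold change -2.80 ± 0.36, adjusted p = 5.67e-07). AGP13 averaged 1.49 ± 1.13 CPM in bzip17/28 and 10.4 ± 2.87 CPM in bzip28/60 (SD, n = 3 each), and 1.75 ± 0.652 CPM in s1p/s2p mock. AT2G47880 (a glutaredoxin), AT2G01610 (an invertase or pectin methylesterase inhibitor), AT1G22160 (a senescence-associated family protein) and NAS2 were lower by -3.08, -3.02, -2.88 and -2.82 on the log2 scale.

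Many of the mock differences were also called in the Tm libraries of the same lines, which share no library with the mock comparison. There 2621 genes were called (25.4%), 1259 higher (12.2%) and 1362 lower (13.2%) in bzip17/28. Of the 1006 genes higher under mock, 602 (59.8%) were also higher under Tm, 47.8% of that list, and 16 were lower. Of the 728 genes lower under mock, 468 (64.3%) were also lower under Tm, 34.4% of that list, and 9 were higher. The sign was the same at 911 and 690 of them. The jasmonate list had 16 higher genes under Tm as well, with a median of 2.12 against 2.91 under mock. The difference between the contrasts was called at 484 genes (4.68%), 136 of them among the 1006 and 45 among the 728. MYC2 was 1 of these, with 180 ± 4.83 CPM in bzip17/28 Tm and 71.8 ± 9.59 CPM in bzip28/60 Tm (SD, n = 3 each; adjusted p of the difference 0.00594). Immunity genes were higher at 4 of 12 under Tm, and the differences between Tm and mock of PAD4, PR5 and WRKY33 were called (adjusted p = 0.0191, 0.0325 and 0.00623). WRKY33, a transcription factor of defence, was higher in bzip17/28 by 0.77 under mock (a call lost with all 36 libraries fitted, adjusted p = 0.108) and by 1.89 under Tm on the log2 scale.

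**Figure D5:**
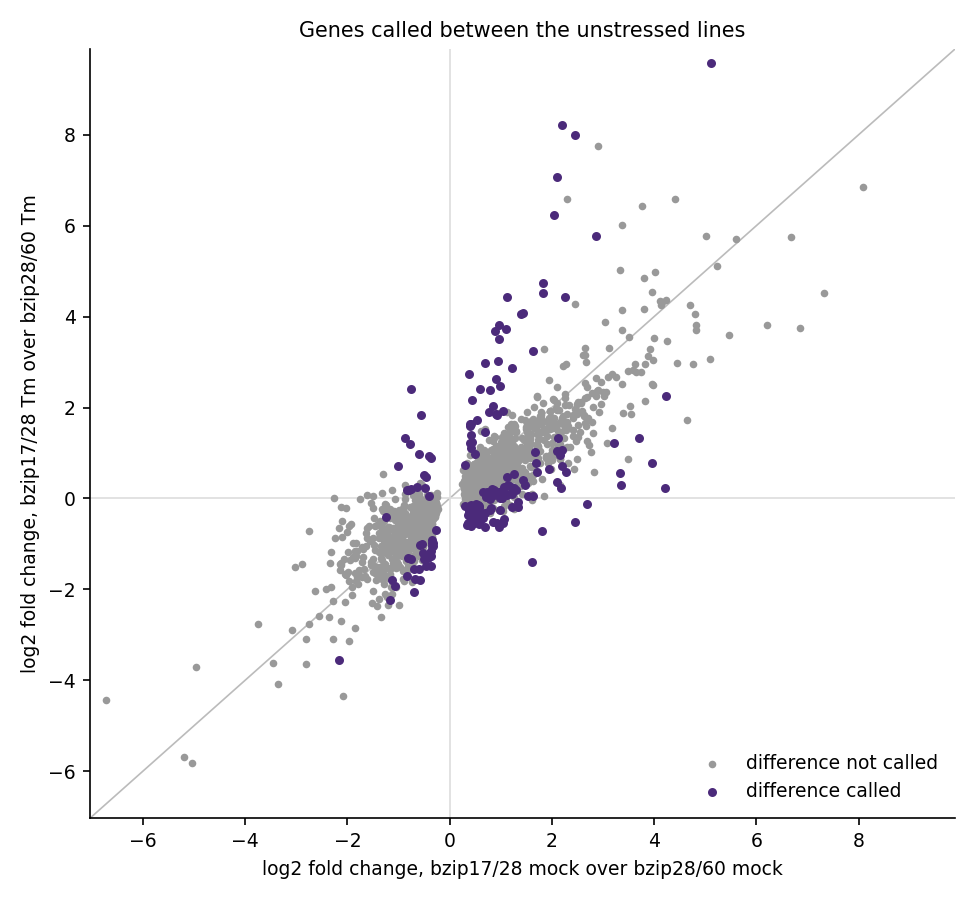
Log2 fold change of bzip17/28 over bzip28/60 in mock libraries (x axis) and in Tm libraries (y axis) for the 1734 genes called under mock, with the line of equal values. Purple points are the genes whose difference between Tm and mock was called, and AT1G18830 is the highest of them, at 5.11 and 9.58.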

How the data were processed

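Per the labels, RNA came from whole seedlings and was read as 3'-end mRNA libraries. The authors deposited raw read counts per transcript model, one table per library. Tools listed in the submitters' processing notes are HTSeq 0.6.0, TopHat2 2.1.1, Trim Galore 0.2.8 and SAMtools. For the strand setting of the counting, and for the build of the genome, the value is not given in the sources used here. Overlapping and antisense genes are therefore uncertain, and no coordinates or sequences are given.

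Counts of 58699 models were summed to 37336 loci, of which 37051 were found in the RefSeq TAIR10.1 gene table that gave the symbols. Lines that name no gene were left out of library sizes: ambiguous reads, 40.1 to 41.0% in the 6 libraries, and reads on no feature, 2.74 to 3.08%. Models of 1 locus share reads, so loci with several models are undercounted. Assigned counts of about the depth given above leave genes under a few CPM with wide counting error, and intervals and floors cover counting error only.

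Genes were kept by filterByExpr (minimum count 10) and tested with edgeR 4.0.16 in R 4.3.3 (TMM, quasi-likelihood F-test, Benjamini-Hochberg threshold 0.05) in 1 fit of the 24 mutant libraries (8 groups of 3, 16 residual degrees of freedom). The contrasts were bzip17/28 minus bzip28/60 in mock, in Tm, and the difference of both. Mean CPM ± SD are over 3 libraries. Simulated data for the mock contrast had 200 changed genes, 50 at each step, with 10218 genes tested. Of genes changed by 1 and -1 on the log2 scale 70% and 58% were recovered, 98% and 90% at 2 and -2, and 5.95% of calls were false. Fewer genes were changed there than the 1734 called in the data, so these rates may not hold for the mock contrast itself. Libraries of a group differed by more than sampling noise (chi-square per degree of freedom 1.505 to 2.929). They were therefore not repeat reads of 1 library, but this does not show that they were grown apart. Each was counted as 1 replicate.

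The comparison and the gene lists were chosen with earlier results of these data known. Lists were matched by symbol, and genes of another function or an organelle that share a symbol were left out by name. Genes were named by rule: the genotype genes, the 10 largest called changes each way with no overlap and at least 5 CPM in the higher line, and, for each list, the 3 called genes with the lowest p and the uncalled gene with the highest mean CPM. All other genes named were chosen after their values were seen, such as AT3G10815, AOS, TAT3, BIP1 and the genes of the closing observations.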

Additional observations from a re-analysis of the deposited data

Results flagged for a closer look

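The difference between bzip17/28 and bzip28/60 was itself different under Tm and under mock at 29 of the genes named (edgeR's quasi-likelihood test of the difference, adjusted p under 0.05). Values are the Tm log2 fold change minus the mock log2 fold change, and both contrasts are of bzip17/28 over bzip28/60. Among UPR regulators, the value was 2.91 for BZIP60, 2.53 for BI1, 5.52 for TIN1 and 6.04 for NAC103, whose bzip28/60 Tm libraries held 2 counts in all. Among folding genes it was 2.9 for PDIL1-2, 2.81 for PDIL2-3, 3.17 for PDIL1-3, 2.68 for ERO1, 2.4 for ATERDJ3B, 1.02 for SDF2, 1.01 for CRT1b, 2.22 for BIP1 and 2.76 for CNX1. Among genes of ER entry and exit it was 4.48 for AT1G18830, 4.97 for ARFA1D, 1.81 for SAR1B and 1.34 for AT5G50460. It was 1.13 for WRKY33, an immunity gene.

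The other 11 genes had a lower value under Tm. It was -0.81 for MYC2, -1.98 for CYP71A12, -0.87 for PAD4, -1.53 for PR5, -1.14 for Hsp70-2 and -1.99 for UGT74E2. Among growth and water channel genes it was -1.4 for EXPA8, -0.44 for FLA9, -0.49 for PIP1;5, -1.48 for BETA-TIP and -1.03 for TIP2;2.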

How the results depend on the processing

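The mock count of 1734 lay between 1326 and 2108 with the other settings and between 1326 and 1620 with 1 library left out, the lowest without bzip17/28 replicate 2. Each setting also called 72.6 to 99.9% of the 1734 genes, 0 of them with the other sign. The share of calls that were higher lay between 54.2 and 64.7%, against 58.0%. The Tm count of 2621 lay between 2040 and 2623, and between 2049 and 2328 with 1 library left out. With all 36 libraries fitted, the difference between Tm and mock was called at 258 genes in place of 484, and 124 in place of 292 were lower. With 1 library left out the lower count ranged from 173 (without bzip28/60 Tm replicate 2) to 272, with 194 without bzip28/60 mock replicate 1. The cause was not tested. Of the results for single genes named under these alternatives, 2212 kept their direction and side of the threshold, 21 passed it newly, 83 lost it and 0 reversed.

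Same-numbered libraries of the lines correlated by 0.0397, 0.0156 and 0.0145 in their deviations, and pairs with different numbers by -0.038 to 0.0219. All these values are small, and no pairing was used in the main fit. Whether same-numbered libraries were handled together is not given in the labels. With the replicate block 1699 genes were called, 1668 of them among the 1734. The search of promoters for motifs was not run. Depth limits what can be said of genes under a few CPM.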

Other observations

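Among abundant called genes outside the lists, chosen after their values were seen, several with roles in defence or senescence were higher in bzip17/28. CLH1, a chlorophyllase, averaged 696 ± 129 CPM in bzip17/28 and 95.6 ± 24.8 CPM in bzip28/60 (SD, n = 3 each), a log2 fold change of 2.87. ARGAH2, an arginase, averaged 495 ± 105 and 88.1 ± 19.3 CPM in bzip17/28 and bzip28/60. The trypsin inhibitor TI1 averaged 256 ± 6.34 CPM in bzip17/28 and 35.4 ± 1.55 CPM in bzip28/60, and MBP1, a myrosinase-binding protein, 167 ± 31.3 and 26.04 ± 9.79 CPM in the 2 lines, bzip17/28 and bzip28/60. NAC019, a transcription factor, averaged 142 ± 13.4 CPM in bzip17/28 and 7.26 ± 3.81 CPM in bzip28/60, and the ethylene response factors ERF-1 and ERF2 were higher by 1.71 and 1.69 on the log2 scale.

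Abundant genes lower in bzip17/28 included GASA6, a gibberellin-regulated gene, with 118 ± 5.61 CPM in bzip17/28 and 569 ± 165 CPM in bzip28/60 (SD, n = 3 each; log2 fold change -2.27). DR4, a protease inhibitor-like gene, averaged 26.4 ± 3.63 and 117 ± 5.17 CPM, and PHI-1, a phosphate-induced gene, 141 ± 9 and 358 ± 47.0 CPM (bzip17/28 and bzip28/60).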
